A study of Mus musculus with 12 samples.

Results

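Voltage-gated sodium and calcium channel genes were examined in single-nucleus RNA-seq of the embryonic mouse cortex. The genes were chosen by symbol alone: sodium channel pores (Scn with a number and a) and their beta subunits (Scn with a number and b), calcium channel pores (Cacna1 with a letter), and the Cacna2d, Cacnb and Cacng subunits. This gave 40 of the 23513 genes in the count tables: 10 Scn alpha, 4 Scn beta, 10 Cacna1, 4 Cacna2d, 4 Cacnb and 8 Cacng genes. Nuclei came from cortices of C57BL/6J embryos at embryonic day 14, with no genetic change named. The saline group held 5 embryos of dams S1 and S2, which received saline intraperitoneally. The EtOH group held 6 embryos of dams E1 and E2, injected with 2.5 g/kg ethanol once daily, 6 injections in all. The age of the dams was not given in the sources used here. Dams S1 and E1 made up the first library batch, and S2 and E2 the second, so each treatment rested on 2 dams and each batch held both treatments. Embryos were named by dam and number, and embryo S2-3 was not analysed here.

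A sodium or calcium channel is built around a single large alpha subunit that forms the pore and senses voltage. Sodium channel alpha subunits carry the rising phase of the action potential, and calcium channel alpha subunits let calcium in during depolarization, where it drives transmitter release, gene expression and, in immature neurons, migration and outgrowth. Beta subunits, alpha2delta proteins (Cacna2d) and cytoplasmic calcium channel beta proteins (Cacnb) set how much channel reaches the membrane and how it gates, while most Cacng proteins are better known as partners of AMPA-type glutamate receptors.

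The tables held 50550 nuclei, 30349 from saline and 20201 from EtOH embryos, in the 25 clusters assigned by the authors. These comprised 5 clusters of radial glial cells (RGC: Clusters 2, 3, 12, 20 and 21), 2 of intermediate progenitors (IPC: 6 and 17), 8 of projection neurons (PN: 1, 4, 8, 9, 16, 22, 24 and 25), 7 of interneurons (Int: 5, 7, 10, 13, 15, 18 and 23), and Clusters 11 (striatal inhibitory neurons), 14 (Reln-rich layer I cells) and 19 (unknown). Marker genes separated most of these types: 5 PN markers summed to 1016–3533 CPM (UMI counts scaled to a common library total) in the PN clusters against 336–526 in RGC clusters, but to 490–1352 in Int clusters and 1911–2192 over the embryos of striatal Cluster 11, which overlap PN, and 5 interneuron markers to 844–2159 CPM in Int against 37.5–78.7 in PN clusters. PN Clusters 24 and 25 were small, with 275 and 124 nuclei. A thalamus list (Ntng1, Gbx2 and Lef1) summed to 614 CPM in Cluster 24, second to 637 in Cluster 14, against 52.3 in PN Cluster 4. Its part in the levels of Cluster 24 was not tested. Embryo totals ranged from 14078316 to 83061737 unique molecular identifiers (UMIs, counts of distinct RNA molecules), and the channel genes took 4918–5825 CPM of each. Saline embryo S2-4 stood apart from its group. It had a median of 6325 UMIs per nucleus, within the EtOH range of 4071.5–6911 and below the 8365–9051 of the other saline embryos, and its profile correlated more with the EtOH mean than with the other saline embryos in 16 of 25 clusters. The other saline embryos were nearer the EtOH group in 1 of 25 clusters each, and EtOH embryos nearer the saline group in 7–10 of 23–24. Genes under 10 kb held 5.185% of its UMIs, against 3.967–4.733% in the other saline and 4.907–5.279% in EtOH embryos. Without S2-4, UMIs per nucleus separated the treatments completely, so EtOH and depth cannot be told apart in that comparison. EtOH results are therefore given with and without S2-4.

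**Figure D1:**
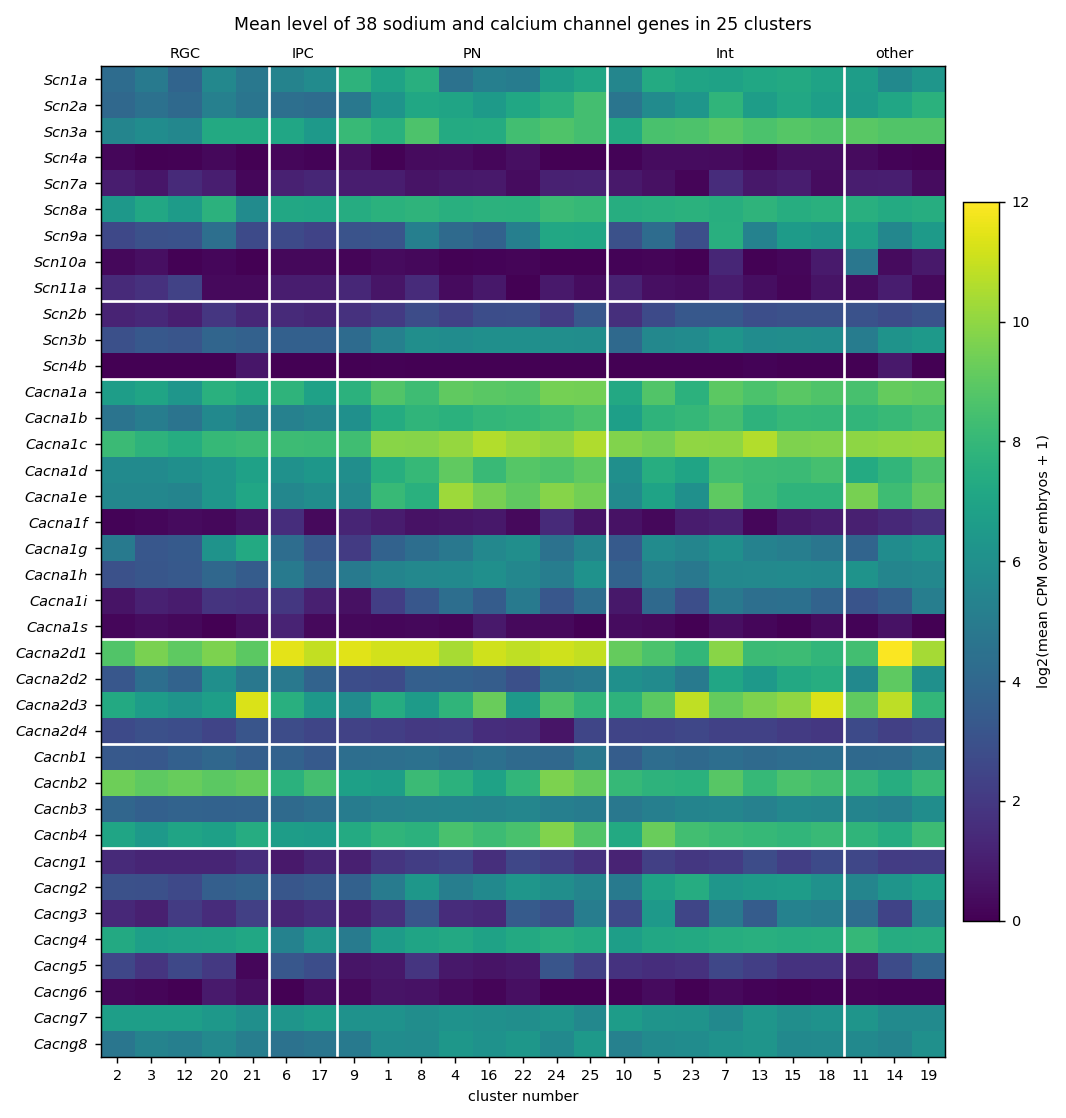
Mean CPM of 38 of the channel genes (rows, by family) in the 25 clusters (columns, by major cell type), as log2(CPM + 1). Rows are to be read from left to right, since levels of genes of different length are not comparable within a column. Most pores rise from RGC to PN and Int columns, whereas Cacna2d1, Cacna2d3, Cacnb2 and Cacng7 break that pattern.

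Most of the channel genes were transcribed in the embryonic cortex, and most were higher in neurons than in radial glia. Levels are means over embryos with at least 10 nuclei in a cluster, with their SD. They are descriptions with no test, because the clusters were made from these genes among others. Of the 40 genes, 28 reached 20 CPM in at least 1 cluster and 14 did so in every cluster. Of the 28, 19 had a higher mean in both PN and Int than in RGC, and the exceptions included Scn10a, Cacna1g, Cacna2d1, Cacna2d2, Cacna2d3, Cacnb2, Cacng4 and Cacng7. The remaining 12 stayed below 20 CPM everywhere, among them Scn4a, Scn7a and Scn11a, the beta subunits Scn2b and Scn4b, the skeletal muscle and retinal pores Cacna1s and Cacna1f, Cacna2d4, and Cacng1, Cacng5 and Cacng6. Scn4b, a beta subunit of mature neurons, gave 20 UMIs over all nuclei, Scn4a, the pore of skeletal muscle, 61, and Cacna1s 112. Levels of different genes were compared only per length. As mean CPM per kb of gene span over the 25 clusters, Cacna2d1 was highest at 3.05, followed by Scn3a (2.52), Cacnb3 (2.40), Cacng4 (2.26), Cacng8 (2.06) and Cacng7 (2.06). Scn3b led the sodium channel beta subunits at 1.86 CPM per kb of span and Cacna1a the calcium channel pores at 1.41. Per kb of exon, 3 of those 6 leading genes stayed among the first 6, and Cacna2d1 was first again. By exon length Cacna1c led the calcium channel pores at 38.4 CPM per kb, above Cacna1a at 31.1.

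Sodium channel pores were led by Scn3a, the alpha subunit long known as the embryonic form. Scn3a averaged 63.2 ± 25.1 CPM in RGC, 121 ± 25.1 in IPC, 245 ± 30.9 in PN and 391 ± 49.4 in Int (SD, n = 11 embryos). Its highest clusters were both inhibitory, Int Cluster 7 at 491 ± 49.9 CPM and striatal Cluster 11 at 487 ± 68.8, less than 1 SD apart. Per kb of span it held 51.7% of the summed Scn alpha level in Int and 33.5% in RGC. In RGC the larger share, 38.8%, belonged to Scn8a, the pore of nodes and axon initial segments in the adult brain. Scn8a was the flattest of these pores, with 110 ± 17.5 CPM in RGC, 141 ± 11.6 in IPC, 202 ± 7.24 in PN and 190 ± 9.01 in Int.

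Scn1a and Scn2a, the sodium channel genes most often linked to childhood epilepsy, had different maps among projection neurons. Scn1a, known in the mature cortex mainly from inhibitory cells, was highest in early PN of Cluster 9, where embryos ranged from 163 to 259 CPM around a median of 224. It was next highest in PN Cluster 8 (188 ± 27.7 CPM). It stood at 135 ± 33.8 CPM in PN Cluster 25, but at 21.8 ± 4.87 CPM in the subcortical PN of Cluster 4. Interneurons carried Scn1a too. Embryos ranged over 137.1–193.8 CPM in Int Cluster 5, 129.5–168.2 in Cluster 15 and 119.9–168.5 in Cluster 13. The ranges were 98.59–140.2 CPM in Int Cluster 7, 73.85–150 in Cluster 18 and 61.37–214.9 in Cluster 23. Int Cluster 10 was the lowest of the Int clusters, with no embryo above 58.81 CPM. Scn2a was lowest of the PN clusters in that same Cluster 9, at 26.7 ± 10.3 CPM, and highest in PN Cluster 25, at 345 ± 25.1 CPM (SD, n = 7), with 143 ± 18.5 CPM in Cluster 8, where Scn1a was also high. Every embryo of Cluster 25 lay above every embryo of the second cluster for Scn2a. Within the alpha family, Scn1a therefore held 25.4 ± 4.13% of the per-span level in Cluster 9 and Scn2a 3.58%.

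A pair of pores known mainly outside the brain were uneven over the clusters. Scn9a, the pore of pain-sensing fibres, averaged 78.0 ± 22.1 CPM in Int and 23.98 ± 6.15 in PN, with 187 ± 28.2 CPM in Cluster 7 and 4.39 CPM in mitotic IPC. It passed 20 CPM in 12 of 25 clusters, and PN Clusters 24 (146 ± 70.3 CPM) and 25 (135 ± 45.3 CPM) and striatal Cluster 11 (117 ± 14.9 CPM) lay near its peak. Scn10a, another pore of sensory neurons, was found almost wholly in striatal Cluster 11. There its 11 embryos ranged from 17.4 to 36.0 CPM around a median of 24.6, and the cluster held 571 of its 711 UMIs (80.3%). The next cluster, Int Cluster 7, averaged 1.44 ± 1.51 CPM and no embryo of it exceeded 4.356 CPM. Among the 28 genes that reached 20 CPM, Scn10a thus had the narrowest map, with its top cluster at 163.8 times the median of the 25.

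**Figure D2:**
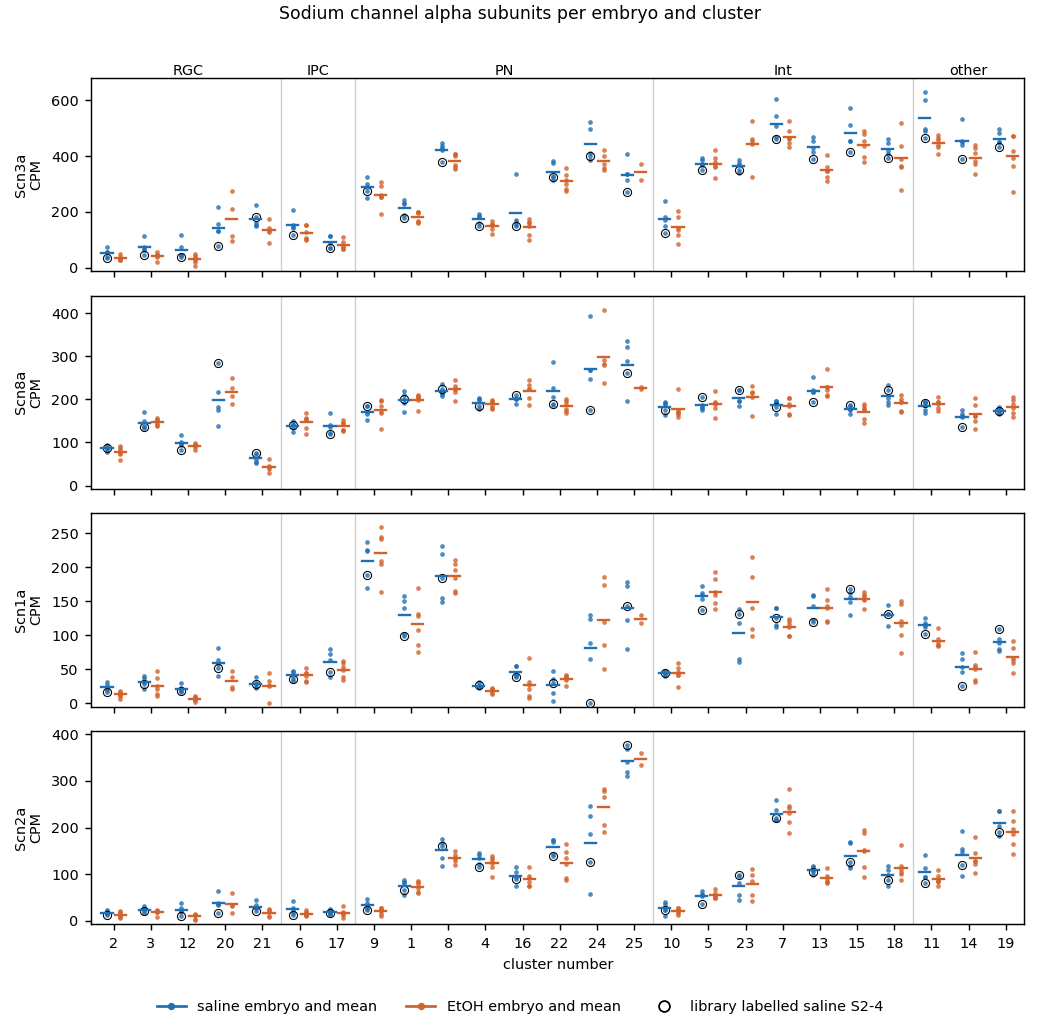
CPM of Scn1a, Scn2a, Scn3a and Scn8a in each of the 25 clusters, 1 point per embryo (blue saline, orange EtOH, ring S2-4) and a bar at each group's mean. Scn1a peaks in Cluster 9, where Scn2a is near its lowest in the PN clusters, and Scn8a varies least.

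Among the sodium channel beta subunits, Scn3b alone reached 20 CPM. This modulator, like Scn3a a gene of immature neurons, rose from 8.19 ± 1.92 CPM in RGC and 11.8 ± 2.53 in IPC to 49.01 ± 4.47 in PN and 53.0 ± 5.21 in Int (SD, n = 11), with the highest level in Cluster 19 (88.0 ± 15.4 CPM).

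Calcium channel pores showed the same neuronal gradient with a few exceptions. Cacna1c, an L-type pore, averaged 251 ± 36.0 CPM in RGC, 298 ± 71.7 in IPC, 987 ± 57.0 in PN and 917 ± 83.1 in Int, and its peak clusters were subcortical PN Cluster 16 (1550 ± 161 CPM) and Int Cluster 13 (1548 ± 137 CPM). The other neuronal L-type pore, Cacna1d, was higher in PN (321 ± 36.9 CPM) than in Int (238 ± 34.6 CPM). Transcripts of the pores of presynaptic terminals were present well before most synapses form: those of the P/Q-type pore Cacna1a averaged 432 ± 54.1 CPM in PN and 407 ± 41.6 in Int, and those of the N-type pore Cacna1b 198 ± 15.5 in PN and 245 ± 17.98 in Int. Channel protein was not measured. Cacna1b lay at 28.9 ± 6.60 CPM in RGC, and Cacna1a at 116 CPM.

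The R-type pore Cacna1e was uneven across cell types. It averaged 588 ± 55.6 CPM in PN and 252 ± 39.1 in Int, against 53.7 ± 15.7 in RGC and 49.7 ± 18.9 in IPC. Within PN it ran from 1212 ± 71.6 CPM in rostral subcortical PN (Cluster 4, embryos 1083–1338, median 1218) to 49.4 CPM in early PN of Cluster 9, close to the progenitor values. Striatal Cluster 11 also carried it at 752 ± 115 CPM.

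T-type pores open near resting potential. Cacna1g, the T-type pore of thalamic relay neurons in the adult, was highest in cortical hem RGC of Cluster 21, with embryos from 109 to 208 CPM around a median of 149, and next in Tcf7l2-rich RGC Cluster 20 (71.2 ± 25.3 CPM). All embryos of Cluster 21 lay above all of Cluster 20, and Cacna1g made up 53.4 ± 6.48% of the Cacna1 per-span level there, against 4.56% in PN (25.1% in Cluster 21 when lengths were exonic). Cacna1h followed the neuronal gradient, from 8.26 CPM in RGC to 45.7 in PN, and Cacna1i averaged 17.8 CPM in Int with its peak in Cluster 19 (33.9 ± 9.70 CPM).

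The alpha2delta genes split the cortex between them. Cacna2d1, a target of gabapentin, was highest by cell type in IPC and PN: 576 ± 99.3 CPM in RGC, 2612 ± 315 in IPC, 2067 ± 278 in PN and 545 ± 140 in Int. The split did not follow excitatory against inhibitory lineage. Cacna2d1 held 84.1% of the family per kb of span in interneuron precursors of Cluster 3 (770 ± 137 CPM). Its share was 61.8% in Int Cluster 10 and 54.2% in Int Cluster 7, but 24.96% in hem RGC of Cluster 21. It peaked in the Reln-rich cells of Cluster 14, where embryos ranged from 3542 to 4390 CPM around a median of 3964, and stood at 2953 ± 429 CPM in non-mitotic IPC of Cluster 6 and 2862 ± 288 in early PN of Cluster 9. Its lowest clusters were Int Clusters 18 (241 ± 116 CPM) and 23 (244 ± 150 CPM). Cacna2d3, linked to pain and hearing, was highest where Cacna2d1 was lowest among interneurons. Cacna2d3 averaged 750 ± 123 CPM in Int with 2530 ± 435 in Cluster 18, and it reached 2575 ± 600 CPM in cortical hem RGC (embryos 1715–3314, median 2798). Those top clusters overlapped. Early PN of Cluster 9 held 54.0 ± 24.03 CPM of Cacna2d3.

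Cacna2d2, the other gabapentin-binding form, was an interneuron and layer I gene. It stood at 101 ± 10.7 CPM in Int, 16.8 ± 5.59 in RGC and 10.0 ± 2.55 in PN, and at 525.9 ± 123 CPM in Cluster 14 (embryos 292–678, median 538), above every embryo of the second cluster, Int Cluster 18 (179 ± 33.6 CPM). Cluster 14 thus carried 3 alpha2delta genes at once, with Cacna2d3 at 1801 ± 424 CPM. Per kb of span, Cacna2d1 made up 93.4% of the family in IPC and 92.8% in PN, but 41.2% in Int, where Cacna2d3 held 31.1% and Cacna2d2 26.5%. Per kb of exon the order in Int turned, with Cacna2d3 at 60.2%, Cacna2d1 at 30.5% and Cacna2d2 at 9.01%, while Cacna2d1 still led in IPC (90.7%) and PN (86.7%).

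**Figure D3:**
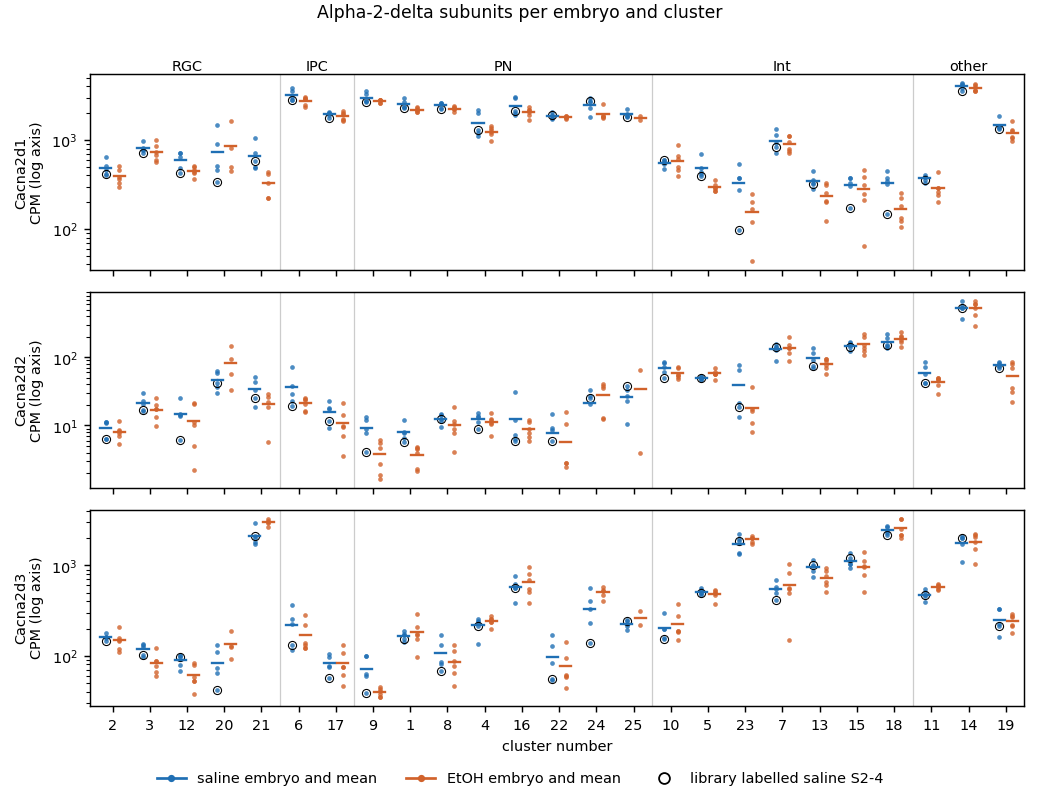
CPM of Cacna2d1, Cacna2d2 and Cacna2d3 in each of the 25 clusters on a log axis, 1 point per embryo (blue saline, orange EtOH, ring S2-4) and a bar at each group's mean (3 values of 0 are not drawn). Cacna2d1 is highest in Cluster 14 and in IPC and PN clusters, Cacna2d2 in Cluster 14, and Cacna2d3 in Clusters 21, 18 and 23.

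The start regions of 4 of these genes are shown because results turned on these genes and their levels range from the highest per length (Cacna2d1) to the most restricted (Scn10a). Each window runs from 250 bases before to 50 bases after a RefSeq transcript start, read 5′ to 3′ on the gene's strand in GRCm38.p6, with every CG dinucleotide in capitals. Windows existed for 30 of the 40 genes.
Cacna2d1, chr5:15934441-15934740 (+): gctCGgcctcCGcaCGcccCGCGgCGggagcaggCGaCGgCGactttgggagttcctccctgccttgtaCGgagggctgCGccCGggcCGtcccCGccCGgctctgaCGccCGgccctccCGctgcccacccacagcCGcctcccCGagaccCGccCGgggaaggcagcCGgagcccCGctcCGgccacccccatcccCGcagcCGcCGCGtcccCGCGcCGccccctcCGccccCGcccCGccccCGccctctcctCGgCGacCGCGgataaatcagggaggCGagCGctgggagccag
Cacna2d3, chr14:29721815-29722114 (-): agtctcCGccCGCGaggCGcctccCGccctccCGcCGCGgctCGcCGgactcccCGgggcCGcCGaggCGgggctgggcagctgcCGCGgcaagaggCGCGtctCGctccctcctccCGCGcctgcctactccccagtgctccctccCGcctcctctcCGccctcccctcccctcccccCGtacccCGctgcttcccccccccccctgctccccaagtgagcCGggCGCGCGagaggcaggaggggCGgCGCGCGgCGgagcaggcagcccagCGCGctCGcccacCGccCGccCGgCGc
Scn1a, chr2:66440788-66441087 (-): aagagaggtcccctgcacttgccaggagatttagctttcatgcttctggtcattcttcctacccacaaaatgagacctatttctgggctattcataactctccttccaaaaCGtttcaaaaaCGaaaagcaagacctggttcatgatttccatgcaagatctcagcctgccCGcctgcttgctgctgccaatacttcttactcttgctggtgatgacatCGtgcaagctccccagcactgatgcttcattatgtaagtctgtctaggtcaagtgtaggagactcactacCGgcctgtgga
Scn10a, chr9:119718983-119719282 (-): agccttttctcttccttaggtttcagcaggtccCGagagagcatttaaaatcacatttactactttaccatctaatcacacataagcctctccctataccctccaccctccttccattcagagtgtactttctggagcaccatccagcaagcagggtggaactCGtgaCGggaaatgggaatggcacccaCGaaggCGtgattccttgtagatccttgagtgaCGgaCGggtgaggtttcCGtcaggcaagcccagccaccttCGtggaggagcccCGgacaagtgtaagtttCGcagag
The Cacna2d1 window held 42 CG and the Cacna2d3 window 41, counts reached by 3.03% and 3.46% of all 32851 windows, whose median was 7. Scn10a had 11 (41.4% of windows have as many) and Scn1a 5 (62.0%). Over the 41 windows of channel genes the median was 9. The letters TTCAGCACC and GGACAGCGC, which are parts of the RE1 element bound by the neuronal gene repressor REST, occurred on either strand in 0 of these 41 windows and in 0.371% and 0.405% of all windows. A match or its absence describes the letters of these windows only.

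Cytoplasmic beta subunits had different maps. Cacnb2 had its highest cell type mean in radial glia, at 583 ± 54.1 CPM in RGC against 243 ± 34.9 in IPC, 206 ± 27.6 in PN and 324 ± 32.6 in Int. It lay at 648 ± 78.7 CPM in RGC of Cluster 2 and at 101 ± 27.3 CPM in callosal PN of Cluster 1. PN Clusters 24 and 25 departed from the other PN clusters, with 791 ± 261 CPM (SD, n = 10), the highest mean of all clusters, and 564 ± 114 CPM (n = 7). In saline embryos alone the mean of Cluster 2 was higher, at 706 CPM against 654 in Cluster 24. Cacnb4, the form mutated in the lethargic mouse, ran the other way by cell type, with 119 CPM in RGC, 295 ± 22.5 in PN and 360 ± 50.5 in Int, with 621 ± 96.6 CPM in migrating interneurons of Cluster 5 and its peak, 850 ± 274 CPM, also in PN Cluster 24. Cacnb3 rose from 13.7 CPM in RGC to 39.3 in PN and 39.0 in Int, and Cacnb1 from 9.84 to 19.3 and 17.3. Cacnb2 held 43.99 ± 3.91% of the family's per-span level in RGC and 9.80% in PN, or 70.0% and 24.9% per kb of exon. Which gene led in PN depended on the length used: Cacnb3 held 52.2% per kb of span and 15.7% per kb of exon, Cacnb4 52.6% per kb of exon.

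Cacng genes, most of them AMPA receptor auxiliary subunits, ranged from flat to interneuron-restricted. Cacng7 was highest in radial glia, at 102 ± 5.49 CPM in RGC and 65.3 ± 4.04 in PN. Cacng4 stood at 130 ± 12.6 CPM in RGC, 51.1 ± 7.04 in IPC, 119 ± 8.54 in PN and 158 ± 14.5 in Int, with a peak in striatal Cluster 11 (255 ± 22.3 CPM). Cacng2, stargazin, averaged 89.1 ± 12.1 CPM in Int and 44.4 ± 4.6 in PN. Cacng3 was confined to a narrower set: 41.9 ± 16.2 CPM in Int against 3.90 in PN and 1.92 in RGC, with 88.4 ± 32.6 CPM in migrating interneurons of Cluster 5 and 39.0 ± 7.68 in Cluster 15.

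The comparison of EtOH with saline asked whether ethanol exposure of the dam altered these genes in each cell type. UMIs were summed per embryo and cluster and tested with edgeR's quasi-likelihood method, with a call at a Benjamini-Hochberg adjusted p under 0.05 and a fold above 1.25 or below 0.8. Of 605 gene and cluster pairs tested, over 32 of the 40 channel genes, 1 was higher and 4 were lower after EtOH. The background was of the same order: 0.442% of all 217253 pairs were called higher and 0.35% lower, and of pairs of genes at least 100 kb long, which made up 402 of the channel pairs, 0.298% and 0.79%. The median log2 fold change over the channel pairs was -0.045, against 0.006 over all pairs and -0.073 over genes of at least 100 kb. The genes called were Scn1a (chromosome 2, 66270778–66440840), Cacna2d1 (chromosome 5, 15934691–16374511), Cacna2d2 (chromosome 9, 107399612–107529343) and Cacng3 (chromosome 7, 122670492–122769393; gene spans in GRCm38). Among the counted genes, Cacna2d1 shares its span with Gm43000, and Cacna2d2 with Gm17141 and Gm17118, all on the opposite strand. Gm43490 lies within Cacna2d1 on the same strand and was not among the counted genes. How strand was treated in counting was not spelled out beyond the default settings of Cell Ranger. Changes in a summed count do not tell less RNA per nucleus from fewer nuclei that express a gene.

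**Figure D4:**
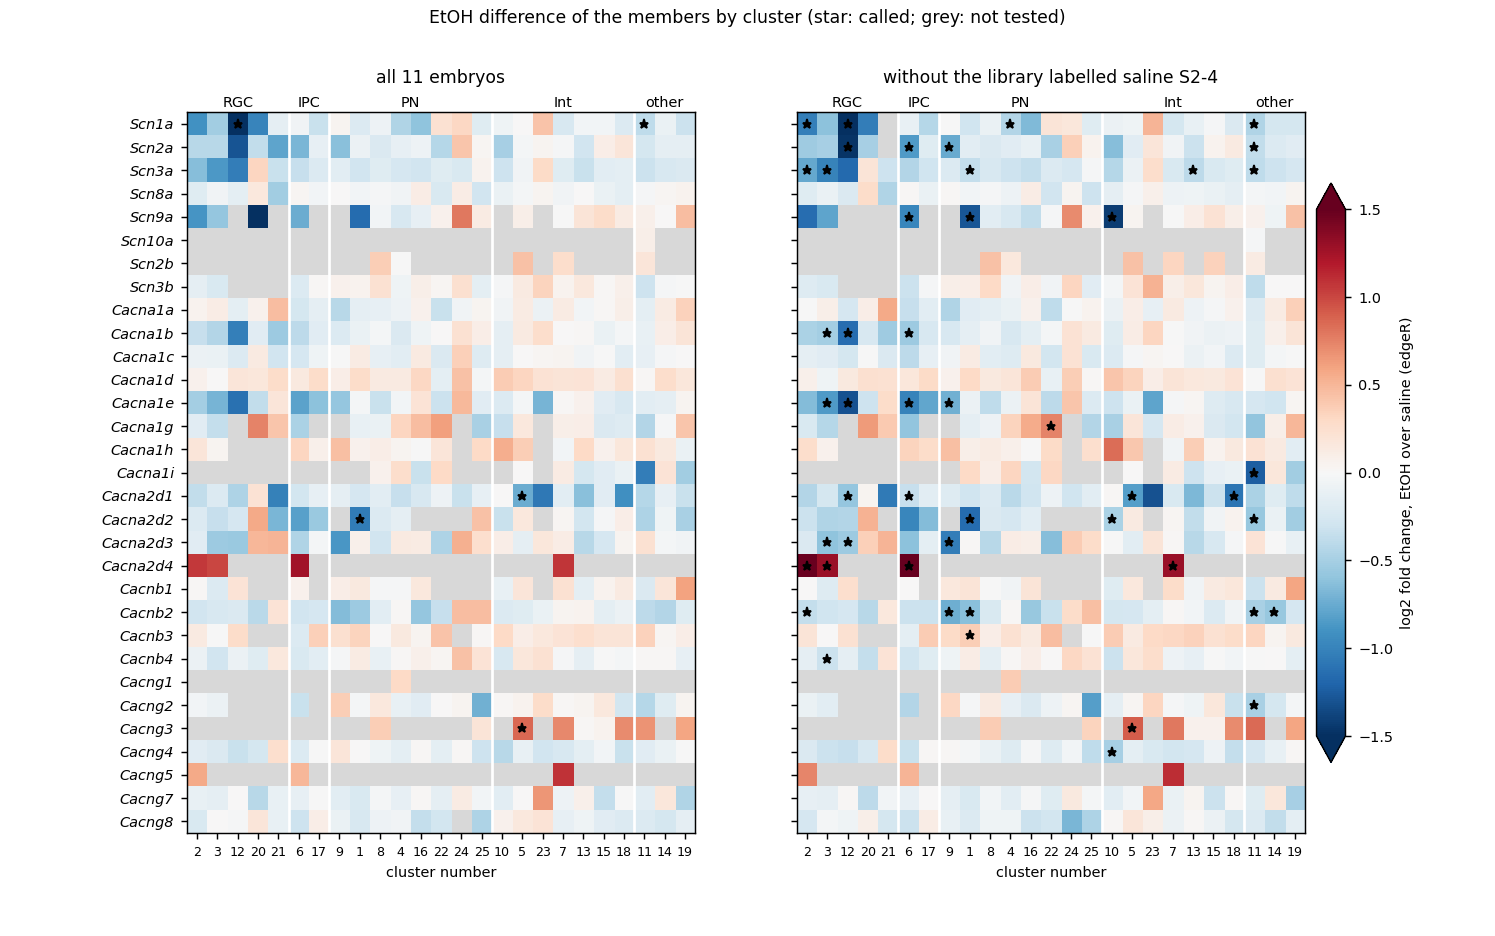
Log2 fold change (EtOH over saline) of 31 of the tested channel genes in the 25 clusters, with all 11 embryos on the left and without saline embryo S2-4 on the right; stars mark called pairs and grey pairs were not tested. With all embryos 5 pairs carry a star, and without S2-4 49 do.

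Scn1a was lower after EtOH in non-mitotic RGC of Cluster 12. Saline embryos had 20.35 (S1-1), 15.93 (S1-2), 29.77 (S2-1), 22.61 (S2-2) and 18.48 (S2-4) CPM, and EtOH embryos ranged from 2.225 to 10.5 around a median of 7.045. Every EtOH embryo lay below every saline embryo, S2-4 included. The log2 fold change was -1.61 ± 0.293 (SE; edgeR adjusted p = 0.0297, where 0.305% of all genes of the cluster were called lower), and -1.67 without S2-4 (edgeR adjusted p = 0.000402). These were low levels, resting on 217 UMIs in all. A neuron marker list (2 of 3 genes in the tables) summed to 844–1175 CPM in saline and 737–879 in EtOH embryos of this cluster, and a microglia list (4 of 4 genes) to 10.8–40.4 and 34.1–62.7, with no listed gene at 0 in all embryos. Their part in the result was not tested. The call ended when S1-1, S2-1, E1-2, E2-2, E2-3 or E2-4 was left out in turn (edgeR adjusted p up to 0.064), with log2 fold changes from -1.70 to -1.46.

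Scn1a was also lower in striatal neurons of Cluster 11. Saline embryos lay at 118, 112.2, 125.8, 115.2 and 102.4 CPM in the same order, and EtOH embryos from 83.73 to 110.4 around a median of 87.94. The groups overlapped through S2-4, the lowest saline embryo, and E2-3, the highest EtOH embryo. The change was small, at -0.39 ± 0.091 on the log2 scale (edgeR adjusted p = 0.0477, where 0.383% of all genes were called lower), and -0.45 without S2-4 (edgeR adjusted p = 0.00117). It passed the threshold narrowly, ended with batch as a term (edgeR adjusted p = 0.0647), and was lost in 12 of the alternatives tried (edgeR adjusted p up to 0.158), among them those that left out any embryo other than S2-4 and E2-3. The microglia list summed to 40.2–98.0 CPM in saline and 84.5–133 in EtOH embryos here, and its part was not tested.

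Migrating interneurons of Cluster 5 held a pair of calls in opposite directions. Cacna2d1 stood at 487.8, 413.5, 437.7, 694.4 and 391.4 CPM in the saline embryos and between 268.7 and 356.7 in the EtOH embryos, with a median of 288.2 and no overlap. Its log2 fold change was -0.75 ± 0.136 (edgeR adjusted p = 0.0281, where 0.813% of all genes were called lower), or -0.83 without S2-4 (edgeR adjusted p = 0.000853). Cacng3 moved up in the same nuclei, from 67.91, 52.3, 42.14, 61.79 and 72.87 CPM in saline to 92.34–151.3 in EtOH embryos, median 108.6, again with no overlap. Its log2 fold change was 0.86 ± 0.149 (edgeR adjusted p = 0.0281, where 1.2% of all genes were called higher), or 0.91 without S2-4 (edgeR adjusted p = 0.00244). Projection neuron markers, 5 of 5 in the tables, summed to 850–944 CPM in saline and 693–974 in EtOH embryos, and interneuron markers to 1618–1936 and 1623–1888, so these lists overlapped between the groups. The microglia list (4 of 4 genes) summed to 11.4–16.9 CPM in the other saline embryos, 23.97 in S2-4 and 20.7–29.7 in EtOH embryos, and the neuron list (2 of 3 genes) to 2824–3109 in saline and 2537–2975 in EtOH embryos. Their part in both results was not tested. The Cacng3 call ended without S1-2, E2-1, E2-2 or E2-3 (edgeR adjusted p up to 0.0843), and the Cacna2d1 call without any 1 of 7 embryos, S1-1, S1-2, S2-1, E1-2, E2-2, E2-3 and E2-4 (up to 0.0937).

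Cacna2d2 fell in callosal PN of Cluster 1, one of the clusters where it was lowest. Saline embryos had 7.952, 6.47, 11.84, 7.638 and 5.757 CPM and EtOH embryos 2.171–4.796, median 4.279, with no overlap. The log2 fold change was -1.05 ± 0.268 (edgeR adjusted p = 0.0397, where 1.69% of all genes were called lower), or -1.15 without S2-4 (edgeR adjusted p = 0.00329), on 207 UMIs in all. Interneuron markers, among whose cells Cacna2d2 is high, summed in these nuclei to 37.5–111 CPM in saline and 25.8–51.8 in EtOH embryos (5 of 5 genes). The microglia list (4 of 4 genes) summed to 6.47–13.5 CPM in the other saline embryos, 23.5 in S2-4 and 17.4–27.4 in EtOH embryos, apart without S2-4, and the IPC list (3 of 3 genes) to 22.9–46.97 in saline and 19.05–28.03 in EtOH embryos. No listed gene was at 0 in all embryos, and their part was not tested. The call was lost in 12 of the alternatives, among them those without any single embryo other than S2-4 (edgeR adjusted p up to 0.107).

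**Figure D5:**
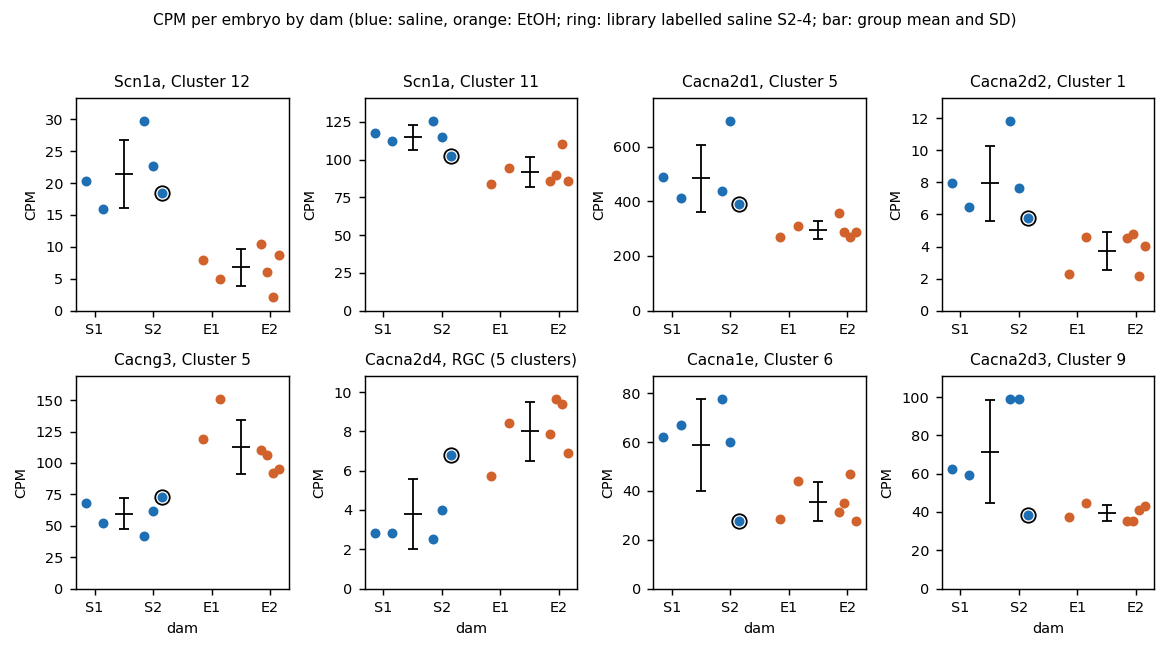
CPM per embryo, by dam, of 8 gene and cluster pairs, with a bar at the mean and its SD and a ring around saline embryo S2-4. In the Scn1a panel of Cluster 12 and the Cacna2d1 and Cacng3 panels of Cluster 5 the EtOH embryos stand clear of all saline embryos, whereas in the Cacna2d4, Cacna1e and Cacna2d3 panels S2-4 lies with the EtOH embryos.

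Over the 4 major cell types, 2 of 123 pairs were called higher and 0 lower in the sums of all 11 embryos (34 pairs at an unadjusted p under 0.05 in edgeR, or 27.6% against 28.9% of all pairs). All genes were called higher in 2.85% and lower in 1.47% of their pairs, and higher in 2.31% in RGC and 3.6% in Int. Cacng3 was higher in Int, with no overlap: 33.21, 29.83, 19.78, 30.29 and 34.5 CPM in saline and 38–76.75 in EtOH embryos, median 49.86 (log2 fold change 0.74 ± 0.200, edgeR adjusted p = 0.0496, and 0.76 without S2-4, edgeR adjusted p = 0.0415). The Int sum includes the Cluster 5 nuclei of the Cacng3 call above, so it is not a separate result. Cluster 5 held 2415 of the 5814 Cacng3 UMIs of all clusters (41.5%). Cacna2d4, a scarce alpha2delta gene best known from the retina, was higher in RGC, at 2.802, 2.827, 2.542, 3.994 and 6.819 CPM in saline and 5.751–9.668 in EtOH embryos, median 8.156. Its groups overlapped through S2-4 alone (log2 fold change 1.03 ± 0.242, edgeR adjusted p = 0.0402, and 1.31 without S2-4, edgeR adjusted p = 0.000175). Cacna2d4 overlaps Lrtm2 on the opposite strand. In RGC, the microglia list went from 14.4–40.5 CPM in saline (14.4–29.1 without S2-4) to 38.3–48.2 in EtOH embryos, the RGC list from 816–1068 to 1052–1265, the pericyte list (3 of 3 genes) from 16.3–27.9 to 22.7–35.5 and the neuron list from 1160–1423 (1221–1423 without S2-4, then apart) to 1030–1201. In Int, the microglia list went from 13.4–29.2 to 26.03–36.2 CPM, and interneuron markers were 1307–1495 and 1275–1695. No listed gene was at 0 in all embryos, and the part of these cells in the type-level calls was not tested. Without S2-4, 7 of 124 type-level pairs were higher and 13 lower (13% and 5.06% of all genes), and S2-4 lay nearer the EtOH mean in 18 of these 20. The 20 pairs were picked by their values without S2-4, which partly sets that count. Both type-level calls ended in all 10 fits that left out 1 embryo other than S2-4, with edgeR adjusted p up to 0.113 for Cacna2d4 and 0.109 for Cacng3. The Cacng3 call in Int also ended without a gene filter (edgeR adjusted p = 0.0907).

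Without S2-4 many more channel genes were lower after EtOH. Of 606 pairs, 7 were higher and 42 lower, over 18 genes and 15 clusters, against a background of 6.17% higher and 2.61% lower among all pairs and 2.84% and 5.53% among genes of at least 100 kb. The long channel genes themselves gave 41 lower calls in 400 pairs (10.2%) and 4 higher. S2-4 lay nearer the EtOH mean than the mean of the other saline embryos in 41 of these 49 pairs, both batches moved the same way in 49, and the groups stayed apart with S2-4 included in 4. The 49 pairs were picked by the values of these same embryos without S2-4. That choice partly sets the counts of direction, of nearness and of overlap. The shares over all tested pairs are not given, so these counts cannot be read as particular to the channel genes. All 5 calls made with 11 embryos were among the 49. The genes called in 3 or more clusters were Scn3a (5 clusters), Cacnb2 (5), Scn1a (4), Scn2a (4), Cacna1e (4), Cacna2d1 (4), Cacna2d4 (4), Cacna1b (3), Cacna2d2 (3), Cacna2d3 (3) and Scn9a (3). Of the 7 higher pairs, 4 were Cacna2d4, in Clusters 2, 3, 6 and 7. For each of these genes the pair with its smallest adjusted p is given, here or above, a choice made after the values were seen.

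Cacna1e fell in non-mitotic IPC of Cluster 6 when S2-4 was left out. Saline embryos had 61.99, 66.99, 77.83 and 59.87 CPM, S2-4 had 27.65, and EtOH embryos ran from 27.77 to 46.97 with a median of 33.13. The log2 fold change was -1.001 ± 0.138 without S2-4 (edgeR adjusted p = 4.7e-05) and -0.81 with it (edgeR adjusted p = 0.105). Cacna2d3 showed the same arrangement in early PN of Cluster 9, at 62.25, 59.24, 98.91 and 99.28 CPM in saline, 38.24 in S2-4 and 35.13–44.49 in EtOH embryos (median 39.22). Its log2 fold change was -1.04 ± 0.154 without S2-4 (edgeR adjusted p = 2.6e-05) and -0.87 with it (edgeR adjusted p = 0.0719). In both pairs S2-4 sat inside or beside the EtOH range and decided the call. Marker lists moved with both. Interneuron markers (5 of 5 genes) summed in Cluster 9 to 50.4–115 CPM in the other saline embryos, 43.6 in S2-4 and 6.29–47.8 in EtOH embryos, and in Cluster 6 to 75.8–171, 69.95 and 52.0–81.6. The microglia list (4 of 4 genes) summed in Cluster 9 to 9.40–15.4, 24.3 and 15.01–39.3 CPM, and in Cluster 6 to 9.95–15.99, 19.99 and 13.6–25.6. In Cluster 6 the RGC list (7 of 7 genes) also moved, from 219.7–268 CPM through 277 in S2-4 to 279–331, and the neuron list (2 of 3 genes) from 2589–2844 through 2405 to 2196–2515. In Cluster 9 the IPC list (3 of 3 genes) went from 90.9–137 CPM through 81.9 in S2-4 to 52.7–83.4, and the neuron list (2 of 3 genes) from 3018–3170 through 2815 to 2815–3011. No listed gene was at 0 in all embryos, and the part of these cells in the results was not tested.

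Radial glia held similar cases at higher and lower levels. Cacnb2 in RGC of Cluster 2, where it is abundant, stood at 699.5, 697.4, 794.6 and 752.2 CPM in saline, 584.6 in S2-4 and 557–657.7 in EtOH embryos, median 599.2, so S2-4 again lay within the EtOH range. Its change was -0.36 ± 0.061 without S2-4 (edgeR adjusted p = 0.000373) and -0.29 with it (edgeR adjusted p = 0.0666). In Cluster 12, Scn2a averaged 27.1 CPM in saline without S2-4 and 10.1 in EtOH embryos (log2 fold change -1.47, edgeR adjusted p = 0.00352, and -1.29 with S2-4, edgeR adjusted p = 0.107). Cacna1b there averaged 35.5 and 16.4 CPM (-1.15, edgeR adjusted p = 0.00244, and -1.02 with S2-4, edgeR adjusted p = 0.0615). Scn1a, Scn2a and Cacna1b were thus all lower in this cluster without S2-4, and of them Scn1a alone passed the threshold with it. Without S2-4 the neuron list of Cluster 12 was apart too, at 962–1175 CPM in saline and 737–879 in EtOH embryos, as was the microglia list, at 10.8–22.6 and 34.1–62.7, and their part was not tested. Cacna2d1 in Cluster 12 averaged 642 CPM in saline without S2-4 and 449 in EtOH embryos, with S2-4 at 425.1 (-0.58, edgeR adjusted p = 0.000654, and -0.47 with S2-4, edgeR adjusted p = 0.122). Cacna2d4 moved up in Cluster 2, from 1.536–3.285 CPM in the other saline embryos, with 6.923 in S2-4, to 5.725–9.524 (1.48, edgeR adjusted p = 0.000686, and 1.06 with S2-4, edgeR adjusted p = 0.0778). In Cluster 2 the microglia list summed to 16.6–27.4 CPM in the other saline embryos, 41.5 in S2-4 and 38.9–61.5 in EtOH embryos, the pericyte list to 15.4–19.03, 23.98 and 21.8–33.4, and the RGC list to 752–1044, 1064 and 989–1299, and their part was not tested.

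Scn3a and Scn9a gave the remaining cases. Scn3a in striatal Cluster 11 stood at 489.1–630.3 CPM in the other saline embryos, 466.2 in S2-4 and 406.4–477.2 in EtOH embryos, so that the groups were apart without S2-4 (-0.38, edgeR adjusted p = 0.00125, and -0.32 with S2-4, edgeR adjusted p = 0.0727). Scn9a in callosal PN of Cluster 1 averaged 12.1 CPM in saline without S2-4 and 5.22 in EtOH embryos, which overlapped (-1.29, edgeR adjusted p = 0.0183, and -1.15 with S2-4, edgeR adjusted p = 0.0831). The marker values given above for Clusters 1 and 11 apply here too.

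Direction over clusters differed between genes. Among the genes tested in all 25 clusters, log2 fold changes were below 0 in 23 clusters for Cacna2d1 (median -0.25), 22 for Scn3a (-0.23), 20 for Scn1a (-0.18), 20 for Scn2a (-0.14), 20 for Cacng4 (-0.15), 19 for Cacnb2 (-0.21) and 19 for Cacna1e (-0.17). Some genes leaned the other way. Cacna1d was above 0 in 23 of 25 clusters (median 0.18), Cacnb3 in 20 of 22 (0.17), Cacna1h in 17 of 20 (0.15) and Cacng3 in 9 of 9 (0.60). Most of these differences passed no threshold: Cacna1d had no called cluster with S2-4 (smallest edgeR adjusted p = 0.132) or without it (0.0584). Scn8a stayed close to 0, with 16 of 25 clusters below it and a median of -0.04. Without S2-4 the counts below 0 were 23 for Cacna2d1, 23 for Scn3a, 21 of 24 for Scn1a, 19 of 24 for Scn2a, 21 for Cacng4, 20 for Cacnb2, 20 for Cacna1e and 18 for Scn8a, and those above 0 were 22 of 25 for Cacna1d, 20 of 22 for Cacnb3, 17 of 20 for Cacna1h and 9 of 9 for Cacng3. The clusters of 1 embryo come from 1 library, so these counts are not independent. A tendency of long genes toward lower values was seen in the whole data set, since 63.9% of the pairs of genes of at least 100 kb were below 0, against 57.5% of the channel pairs. Genes under 10 kb leaned upward, with a median log2 fold change of 0.206 over their pairs. Of the genes that leaned the same way, Cacnb3 spans 13.7 kb, Cacna1h 59.5 kb, Cacng3 98.9 kb and Cacna1d 451.5 kb.

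Whether the EtOH difference itself varied between cell types was tested within embryos against PN. In 108 tests, 0 channel genes passed in edgeR (13 at an unadjusted p under 0.05, or 12% against 7.44% of all tests), where 0.0473% of all tests were called higher and 0.0966% lower than in PN. The smallest was Cacna1b in RGC, whose EtOH difference was lower than in PN by a log2 value of -0.41 ± 0.114 (edgeR adjusted p = 0.139). Without S2-4 this value passed at -0.46 ± 0.102 (edgeR adjusted p = 0.0147), where 0.317% of all tests were called higher and 0.3% lower, and no other channel gene did so.

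Genes that work with these channels gave a similar count. A list of 32 partners, of which 31 were in the tables, covered sodium channel scaffolds and fibroblast growth factor homologous factors, active-zone proteins that tether calcium channels, and calcium-dependent kinases and related subunits. In 572 pairs 1 was called higher and 6 lower, beside the 0.442% and 0.35% of all pairs. Among pairs of genes of at least 100 kb, as all the partners called lower were, the shares were 0.298% and 0.79%. Rimbp2, an active-zone scaffold, was higher in Cluster 5 (27.3 ± 6.68 CPM in saline, 43.7 ± 4.67 in EtOH). In callosal PN of Cluster 1, Nalcn, a sodium leak channel, fell from 41.4 ± 11.7 to 18.6 ± 4.91 CPM, the kinase Camk2d from 32.8 ± 8.25 to 13.6 ± 1.77 CPM, and Fgf13, which binds sodium channel tails, from 827 ± 103 to 623 ± 40.9 CPM. Fgf12 fell in Cluster 9 (93.5 ± 18.8 to 55.1 ± 14.3 CPM), Rims2, an active-zone protein, in Cluster 3 (613 ± 55.3 to 501 ± 18.1 CPM) and the alpha2delta-like Cachd1 in Cluster 13 (135 ± 23.5 to 91.8 ± 23.7 CPM). S2-4 lay nearer the EtOH mean than the mean of the other saline embryos for Rims2, at 515.4 CPM. So it did for Nalcn (24.4 CPM), Camk2d (22.1), Fgf13 (686.7), Fgf12 (64.8) and Rimbp2 (35.95), but not for Cachd1 (150.1). In Cluster 3 the microglia list summed to 14.2–29.2 CPM in the other saline embryos, 37.9 in S2-4 and 36.6–50.4 in EtOH embryos, and the RGC list to 964–1170, 1122 and 1129–1492, and their part was not tested. Without S2-4 the list gave 6 higher and 48 lower of 577, led by Rims2 in 9 clusters and Nalcn in 7, beside 6.17% higher and 2.61% lower among all pairs and 2.84% and 5.53% among genes of at least 100 kb. All 7 pairs named here passed in that fit too, with edgeR adjusted p up to 0.0153. Log2 fold changes there were 0.66 for Rimbp2 (0.59 with S2-4), -1.34 for Nalcn (-1.19), -1.43 for Camk2d (-1.31) and -0.53 for Fgf13 (-0.46). They were -0.90 for Fgf12 (-0.78), -0.43 for Rims2 (-0.35) and -0.59 for Cachd1 (-0.61). With all embryos the edgeR adjusted p of these pairs ran from 0.00273 (Camk2d) to 0.0433 (Fgf12). Rimbp2 (0.0412), Cachd1 (0.0401) and Rims2 (0.0354) also lay near the threshold. No embryo other than S2-4 was left out for this list, so dependence on any other embryo was not tested. Over all pairs, fits without 1 embryo other than S2-4 called 0.0179–0.191% higher and 0.0229–0.154% lower.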

How the data were processed

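Nuclei of frozen embryonic cortices were profiled with 10x 3′ single-nucleus RNA-seq. The authors processed the reads with Cell Ranger on mm10 (per the submitters' processing notes, version not given in the sources used here), filtered nuclei and genes, clustered with Seurat after correction for batch and dam, and removed 1 saline sample. The deposited values were raw UMI counts per gene and nucleus, in 1 table for each embryo and cluster (275 tables for 11 embryos and 25 clusters). Cell Ranger was run at its default settings, and the treatment of strand was not spelled out further. Doublets were not called here. No barcode as written was shared between embryos, and 1 to 18 of the 16-base barcodes were shared per pair of embryos. No pair of embryos agreed within sampling noise.

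Counts were summed per embryo and cluster, or per major cell type, and sums of at least 10 nuclei were used (9 embryo and cluster pairs had fewer). The embryo was the replicate. Littermates were taken as independent, and p-values therefore do not cover differences between the 2 dams of a treatment. edgeR 4.0.16 (R 4.3.3) fitted all genes of a cluster with trimmed-mean scaling, filterByExpr and robust quasi-likelihood tests, and p-values were adjusted over all genes by the Benjamini-Hochberg method. Scripts were tested on simulated data with 200 changed genes. limma 3.58.1, DESeq2 1.42.0 and other settings served as alternatives. Levels are CPM of the summed counts. Gene spans and exon lengths came from GENCODE M21 and start windows from RefSeq, both on GRCm38.

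The channel genes and the partner list were chosen with earlier results of these data known. Genes named in the text were those called in a cluster or cell type, the 6 highest per length and the highest of each family, those whose top cluster exceeded 4 times the median at 20 CPM or more, the main neuronal pores, and partners called in most clusters. Names outside this rule (genes below 20 CPM and those with the most clusters in 1 direction) were chosen after their values were seen. Results for 2 of the channel genes are counted in the totals but not reported here by name.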

Additional observations from a re-analysis of the deposited data

Results flagged for a closer look

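The EtOH difference of Cacna1b, the N-type pore, differed between radial glia and projection neurons when saline embryo S2-4 was left out. The RGC difference minus the PN difference was -0.4557 ± 0.102 on the log2 scale (SE, edgeR adjusted p = 0.0147). With all 11 embryos it was -0.41 ± 0.114 and did not pass (edgeR adjusted p = 0.139). Without S2-4 no other channel gene passed in 108 tests, where 0.317% of all tests were called higher and 0.3% lower. A single call in 108 is of the same order as that background. UMIs per nucleus of the remaining saline embryos lay wholly above those of the EtOH embryos, and without S2-4 the RGC sums were apart for the neuron list (1221–1423 CPM in saline, 1030–1201 in EtOH embryos) and the microglia list (14.4–29.1 and 38.3–48.2). The part of depth and of these lists in this value was not tested. No embryo was flagged by Dixon's test in the 32 groups examined, where chance gives about 1 in 20. With 5 or 6 values in a group the test finds only wide gaps, so it cannot show that no embryo stood apart. It did not flag S2-4 for Cacna1e in Cluster 6, where S2-4 decided the call. Each group held the saline or the EtOH values of a gene in a cluster or cell type given above. Depth and whole profile, in which S2-4 stood apart, were not put to this test.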

How the results depend on the processing

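With all 11 embryos, 1 pair of channel gene and cluster was higher and 4 were lower. The higher count was 7 without a gene filter, 2 with DESeq2, 3 with voom and dam as a random block, 2 after thinning to equal totals and 3 with sums per dam. It ranged from 0 to 7 when 1 embryo was left out, and from 0 to 2 when that embryo was not S2-4. The lower count was 38 without a gene filter, 23 with DESeq2, 21 with sums per dam and 6 with voom, and 0 to 42 when 1 embryo was left out (0 to 2 unless it was S2-4). Channel pairs tested were 605 in the main fit and with voom, and 963 without the filter and with DESeq2. They were 698 with sums per dam, 497 after thinning and 631 with batch as a term. Backgrounds were 0.976% higher and 1.09% lower without the filter, 0.646% and 0.455% with DESeq2, 1.23% and 0.765% with sums per dam, 1.81% and 0.434% with voom, 0.659% and 0.432% after thinning, and 0.242% and 0.22% with batch as a term. Partner calls, 7 with all embryos, were 48 without the filter, 32 with DESeq2, 29 with sums per dam, 13 after thinning, 12 with voom and 54 without S2-4, an alternative chosen after seeing the data. Fits without any other embryo were not run for the partner list. The 2 calls over major cell types became 3 with DESeq2-type size factors (2.9% of all genes higher, 1.74% lower), 4 without the filter (1.45% and 1.42%), 5 with clusters weighted equally (4.22% and 0.684%) and 0 to 20 when 1 embryo was left out (0 unless it was S2-4), and numbered 2 with batch as a term (1.76% and 1.02%). The 0 differences between cell types became 0 to 1. Of the 6 leading genes per kb of span, 3 remained per kb of exon. The cause of these changes was not tested. The 5 cluster calls and 2 type calls kept their direction under all the settings run for them. Embryos could not be paired across treatments because embryo numbers only name embryos within a dam. Dams shared batches across treatments, and the fit of sums per dam held batch as a term. In the fit with batch as a term, 1 pair was higher and 3 lower, and the call of Scn1a in Cluster 11 ended. Depth limits the low genes: the Scn1a call in Cluster 12 rests on 217 UMIs and the Cacna2d2 call in Cluster 1 on 207.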

Other observations

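Scn3a, Scn2a, Scn1a, Scn9a and Scn7a lie on a single stretch of chromosome 2, from base 65457118 to 66784914 (GRCm38), yet their maps over the clusters differed. Scn3a and Scn9a were highest in Int Cluster 7 (491 and 187 CPM), Scn2a in PN Cluster 25 (345 CPM) and Scn1a in PN Cluster 9 (215 CPM), while Scn7a, which has 385 UMIs in all, stayed below 20 CPM in each cluster. On chromosome 9, Scn10a reached 25.7 CPM in striatal Cluster 11, and Scn11a gave 413 UMIs in all. These are values with no test.

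Of the 28 genes that reached 20 CPM, 16 had the same top cluster in saline and in EtOH embryos. In 4 of them, Scn2a, Scn10a, Cacna1g and Cacna2d2, every embryo of the top cluster lay above every embryo of the second cluster. For the other genes at least 1 embryo of the top cluster lay at or below an embryo of the second.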
